A study of Mus musculus with 125 samples.

Results

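Cell lines A and B are sister populations of a mouse leukaemia of B cell precursors, acute lymphoblastic leukaemia (B-ALL), and the question here was where their open chromatin differed once both had been cultured with natural killer (NK) cells to the second time point, TP2, and which of those differences the lines already carried without NK cells. The comparison took the TP2 co-culture libraries of both lines in experiments 9.5, 9.6 and 9.7, which are 9 libraries of A and 9 of B, or 18 of the 125 libraries of the series. They were set beside the 18 libraries of the same lines and experiments cultured without NK cells (B-ALL alone). Each line, arm and experiment held 3 libraries, described by the study as biological replicates. The fit counted each of them as a separate replicate. Most of the 28 residual degrees of freedom of the fit lie between wells of the same line, arm and experiment. The p values therefore measure mainly the spread between such wells. They measure only in small part how the A/B difference varied between experiments, and not the spread between leukaemias.

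Both lines were barcoded from a single parental line, which was driven by the BCR/ABLp185 oncogene and came from the bone marrow of wild-type C57BL/6 mice. All cells of the comparison therefore share that oncogene and parental line, and each line stands for itself only. The NK cells were primary mouse cells activated with interleukin-2, and they were added in equal number to the leukaemia cells. The GFP+ leukaemia cells were sorted by flow cytometry before tagmentation. The labels place TP2 at day 10 in experiments 9.5 and 9.6 and at day 16 in experiment 9.7, whereas the text of the study gives a later day for the second time point, so the days are given here as labelled. The libraries of B-ALL alone were taken at the first time point, at day 4, or day 6 in experiment 9.7. Time in culture and exposure to NK cells therefore cannot be told apart when the arms are compared, whereas A and B within an arm were matched in both.

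ATAC-seq uses the Tn5 transposase to insert sequencing adapters into DNA that is not packed into nucleosomes, so the number of fragments in a region, its peak, measures accessibility. Promoters of active genes and distal enhancers are accessible, and the set of open enhancers is characteristic of a cell type and of its recent signals. NK cells kill through perforin and granzymes and secrete interferon-γ, which acts through JAK kinases on promoters of antigen presentation and antiviral genes. In a bulk library a smaller share of cells with an open site and less accessibility per cell cannot be told apart.

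The peaks on which the results below turn are shown first, each as the 300 bases at the peak centre on the plus strand of GRCm38 (RefSeq GRCm38.p6). They are examples of differences that arose at TP2 or were already there alone, outside annotated exons, chosen with their values known and not by rank, and no inherited peak higher in A is among them. Capitals mark matches to 4 of the short patterns searched on both strands: TTCNNNGAA, the element bound by STAT dimers and called GAS, CAGCTG, an E-box bound by E proteins, TGTGGTT, bound by RUNX factors, and the NF-κB pattern, GGGA and CC with 4 bases between them. Of all 44757 tested peaks with sequence, 8.88% held the GAS, 19.5% the E-box, 8.55% the RUNX and 17.7% the NF-κB pattern in this window. A match describes the letters and is no evidence of binding.
Gnai1 intron, more open in B at TP2, chr5:18313341-18313640: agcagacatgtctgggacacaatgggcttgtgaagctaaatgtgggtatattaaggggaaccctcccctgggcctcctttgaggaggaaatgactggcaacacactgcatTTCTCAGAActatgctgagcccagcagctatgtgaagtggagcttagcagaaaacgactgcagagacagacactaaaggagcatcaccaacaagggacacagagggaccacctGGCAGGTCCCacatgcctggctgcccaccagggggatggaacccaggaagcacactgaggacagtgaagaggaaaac
Ets1 intron, more open in B at TP2, chr9:32726663-32726962: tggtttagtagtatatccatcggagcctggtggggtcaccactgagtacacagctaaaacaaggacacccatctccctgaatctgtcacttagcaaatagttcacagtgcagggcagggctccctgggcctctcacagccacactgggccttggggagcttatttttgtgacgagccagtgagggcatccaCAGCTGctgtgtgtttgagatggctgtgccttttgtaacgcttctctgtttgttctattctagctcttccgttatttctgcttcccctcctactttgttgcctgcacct
Slc16a1 upstream region, more open in A at TP2, chr3:104599134-104599433: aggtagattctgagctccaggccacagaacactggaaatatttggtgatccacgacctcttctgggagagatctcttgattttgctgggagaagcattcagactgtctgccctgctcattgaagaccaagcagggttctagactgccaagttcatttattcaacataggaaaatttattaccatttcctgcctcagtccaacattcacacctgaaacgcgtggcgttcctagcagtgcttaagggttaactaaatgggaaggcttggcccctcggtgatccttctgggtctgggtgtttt
Ighd2-4 region, more open in B at TP2, chr12:113472010-113472309: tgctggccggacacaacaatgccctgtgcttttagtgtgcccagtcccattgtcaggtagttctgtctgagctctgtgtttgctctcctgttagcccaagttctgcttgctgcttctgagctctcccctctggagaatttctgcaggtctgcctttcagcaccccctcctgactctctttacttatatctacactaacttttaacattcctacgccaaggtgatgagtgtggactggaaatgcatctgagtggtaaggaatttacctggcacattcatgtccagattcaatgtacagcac
Ighd2-3 region, more open in A at TP2, chr12:113476165-113476464: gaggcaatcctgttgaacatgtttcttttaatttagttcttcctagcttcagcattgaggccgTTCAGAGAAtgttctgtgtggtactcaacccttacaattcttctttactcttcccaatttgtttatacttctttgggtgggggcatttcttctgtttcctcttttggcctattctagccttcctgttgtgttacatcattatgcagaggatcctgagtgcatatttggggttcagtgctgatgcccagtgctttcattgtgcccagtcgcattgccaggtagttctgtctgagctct
Efemp1 region, more open in B in both arms, chr11:28934709-28935008: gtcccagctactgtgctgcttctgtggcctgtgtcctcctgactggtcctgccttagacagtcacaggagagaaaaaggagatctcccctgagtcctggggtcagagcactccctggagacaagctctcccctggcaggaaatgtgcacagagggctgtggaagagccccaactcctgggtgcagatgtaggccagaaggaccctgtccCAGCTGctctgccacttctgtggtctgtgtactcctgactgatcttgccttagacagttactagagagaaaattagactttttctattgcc
Acss1 intron, more open in B in both arms, chr2:150646827-150647126: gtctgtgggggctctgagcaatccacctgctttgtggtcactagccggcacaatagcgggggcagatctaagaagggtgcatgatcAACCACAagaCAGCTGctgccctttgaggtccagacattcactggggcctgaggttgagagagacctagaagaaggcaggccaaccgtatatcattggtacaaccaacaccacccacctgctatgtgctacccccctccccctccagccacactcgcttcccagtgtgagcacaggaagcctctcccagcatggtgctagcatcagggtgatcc
The Gnai1 and Ighd2-3 windows each held 1 GAS pattern, the Ets1, Efemp1 and Acss1 windows held 1 E-box each, and the Slc16a1 and Ighd2-4 windows held none of the 10 patterns searched.

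The promoters of B lineage genes were accessible in both lines. Mean TP2 accessibility at the promoters of the B cell antigen receptor gene Cd79a and of the transcription factors Pax5 and Ebf1 lay well above the median of 13 CPM (counts scaled to library size) over all tested peaks, for example at 104 ± 22.2 (SD, n = 9) CPM for Cd79a in A and 118 ± 35.3 CPM in B, and none of the 3 was called different between the lines. The 5 tested promoter peaks of fibroblast and endothelial markers summed to 198 to 248 CPM in A and 183 to 247 in B at TP2. Levels above the median of all peaks therefore do not single out the B lineage. Counts in peaks ranged from 3083547 to 13580746 per TP2 library and from 4151525 to 8944037 per library of B-ALL alone. Total counts did not separate the lines (log2 A/B difference 0.060 at TP2, two-sided exact permutation test within experiments, p = 0.718). Replicates differed by more than sampling noise in every pair (chi-square per degree of freedom of at least 1.16), so none was counted as a duplicate.

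At TP2 the sister lines differed at 2174 of 44797 tested peaks (4.85%), with 1115 more accessible in A (2.49%) and 1059 more accessible in B (2.36%). A peak was called where edgeR's quasi-likelihood test gave a Benjamini-Hochberg adjusted p of at most 0.05 over all tested peaks and the absolute log2 A/B ratio was at least 0.58; positive ratios mean A higher throughout. In B-ALL alone the same lines differed at 505 peaks (1.13%), 199 higher in A and 306 higher in B. TP2 thus gave 4.30 times as many calls as B-ALL alone. The log2 ratios of all tested peaks also spread more widely at TP2, with an SD of 0.29 against 0.19 alone. The largest fold at TP2 was 10.1 towards A and 5.14 towards B, while 188 peaks of A and 202 of B exceeded a 2-fold difference.

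The size of the TP2 difference depended on the experiment, although its direction rarely did. Fitted by itself, experiment 9.5 gave 5016 calls at TP2, experiment 9.6 gave 226 and experiment 9.7 gave 1604. For B-ALL alone the same fits gave 1007, 2 and 6 calls. The count at TP2 was 1710 without experiment 9.5, 3907 without experiment 9.6 and 1717 without experiment 9.7, and that for B-ALL alone was 88, 555 and 540. Of the peaks called at TP2, 99.2% had the same sign in experiment 9.5, 97.4% in experiment 9.6 and 99.9% in experiment 9.7, which is in part fixed by the call itself since each experiment entered it. Across the 44797 peaks the log2 ratios of experiments 9.5 and 9.7 correlated with a Pearson r of 0.61, against 0.39 for 9.5 and 9.6 and 0.45 for 9.6 and 9.7. These are descriptions across peaks of shared libraries.

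A direct test asked at which peaks the A/B ratio itself had moved between the arms. The ratio changed at 782 peaks (1.75%), at 370 towards A and at 412 towards B. This count rested in part on a single library, since it was 1381 without replicate 1 of B alone in experiment 9.7 and lay between 642 and 1144 on leaving out any other library. It was 233 without experiment 9.5, 591 without experiment 9.6 and 527 without experiment 9.7, and within single experiments it was 1610, 8 and 46. From this test and the calls in each arm the TP2 peaks fell into classes. A peak was new if it was called at TP2 and not alone and its ratio changed, inherited if it was called with the same sign in both arms with no called change, and grown if it was called in both arms and the ratio had widened.

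New peaks numbered 481, or 22.1% of the TP2 calls, with 215 higher in A and 266 higher in B. Without replicate 1 of B alone in experiment 9.7 they numbered 741. Inherited peaks numbered 218 (10.0%), 83 higher in A and 135 higher in B, and 25 peaks had grown. The remaining 1450 could be placed in neither group, since for 1443 of them neither the difference alone nor the change was called. A further 49 peaks differed alone and had faded by TP2. The overlap of both arms was 245 peaks with the same sign, which is 11.3% of the TP2 calls and 48.5% of the calls alone. Only 3 peaks called higher in A at TP2 and 2 called higher in B were called in the opposite direction alone.

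**Figure D1:**
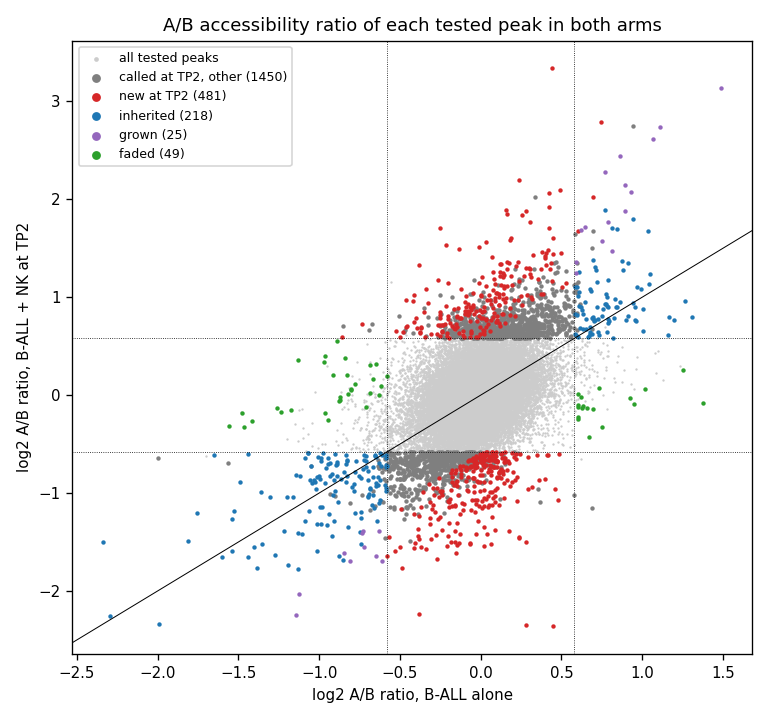
Log2 A/B accessibility ratio of each of the 44797 tested peaks in B-ALL alone (x axis) and in B-ALL + NK at TP2 (y axis). Dotted lines mark ratios of 0.58 and -0.58, the diagonal marks equal ratios, and colours mark the 481 new, 218 inherited, 25 grown, 49 faded and 1450 other peaks. The cloud is taller than it is wide, new peaks lie above and below the centre, and inherited peaks lie along the diagonal.

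The peaks called in either arm mostly had the same direction in the other. Of peaks called higher in A at TP2, 76.8% were also higher in A alone, with a median log2 ratio of 0.73 at TP2 and 0.19 alone. Of peaks called higher in B, 83.7% were also higher in B alone, with medians of -0.73 and -0.25. Chosen the other way, of peaks called higher in A alone 88.4% were higher in A at TP2, with medians of 0.72 alone and 0.58 at TP2, and of those called higher in B alone 91.2% were higher in B at TP2, with -0.78 and -0.57. Since a call needs a ratio past the threshold in its own arm, a smaller median in the other arm follows in part from the selection. Over all 44797 tested peaks the ratios of both arms correlated with a Pearson r of 0.41 and a Spearman correlation of 0.34. All 9 libraries of A lay on one side of all 9 of B at 281 tested peaks (0.627%) at TP2 and at 93 (0.208%) alone.

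How each line moved from alone to TP2 differed among the classes; since the call of a change used these values, they are given as a description only. At new peaks higher in A, the median log2 shift from alone to TP2 was 0.49 in A and -0.38 in B, with a rise in A in all 3 experiments at 164 of 215 peaks and a decrease in B at 125. At new peaks higher in B, the shift was -0.69 in A and 0.10 in B, and A was lower than alone in all 3 experiments at 225 of 266 peaks. In these values the new peaks higher in B mostly had lower accessibility in A at TP2 than alone. Those higher in A mostly had higher accessibility in A, and many of them also had lower accessibility in B. Among the faded peaks the larger shift was again in A, with medians of -0.96 at the 18 peaks that had been higher in A and 1.22 at the 31 that had been higher in B, against -0.09 and 0.28 in line B. Over all tested peaks the median shift was 0.00 in A and -0.01 in B.

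The clearest new differences higher in B lay in introns and between genes. In an intron of Gnai1, an inhibitory G protein α subunit (chr5:18312997-18313983), A at TP2 had 2.40 CPM in its lowest library, a median of 5.67 and a highest value of 7.80, and B had 13.4, 24.6 and 42.2. Alone, A had 13.3, 17.6 and 22.8 CPM and B 14.6, 20.7 and 36.1, so the lines overlapped alone and did not overlap at TP2. The log2 A/B ratio was -2.23 ± 0.121 (SE) at TP2 (adjusted p = 1.39e-18) and -0.38 alone, and the change of -1.85 was called (adjusted p = 3.36e-11). It was -2.46, -2.19 and -2.07 in experiments 9.5, 9.6 and 9.7.

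A peak 18188 bases from the start of Sln, which encodes the calcium pump regulator sarcolipin, ran from 1.88 through 3.49 to 5.71 CPM in A at TP2 and from 6.06 through 10.5 to 14.2 CPM in B. Alone it ran from 7.37 to 12.3 CPM in A and from 8.10 to 15.1 CPM in B. The groups were apart at TP2 and overlapped alone, with log2 ratios of -1.61 ± 0.155 (adjusted p = 5.47e-11) and -0.15. In an intron of Ets1, a transcription factor of lymphocytes (chr9:32726198-32727426), A ran from 2.95 through 4.50 to 6.19 CPM at TP2 and B from 9.78 through 13.9 to 16.7. Its ratio was -1.65 ± 0.127 at TP2 (adjusted p = 9.9e-14), with no overlap of the lines, and -0.58 alone, just inside the threshold. An intron of 2010110G14Rik near Gm43349 had ratios of -1.59 and -0.53, and Ubash3a, a negative regulator of T cell receptor signalling, held an exonic peak, nearest the start of AC154652.1, with ratios of -1.55 ± 0.162 at TP2 (adjusted p = 4.9e-10) and -0.37 alone.

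Among new differences higher in A, a peak 39385 bases upstream of Slc16a1, the monocarboxylate transporter of lactate (chr3:104598049-104600518), had 9.41, 14.6 and 16.7 CPM as lowest, median and highest values in A at TP2 and 3.91, 4.81 and 6.45 CPM in B. Alone, A had 6.77, 10.0 and 12.2 CPM and B 7.97, 10.4 and 12.4 CPM, so A and B overlapped alone and were apart at TP2. B at TP2 lay below all its values alone, while the ranges of A overlapped between the arms. The log2 ratio was 1.52 ± 0.122 at TP2 (adjusted p = 3.12e-13) and -0.01 alone, with a change of 1.53 (adjusted p = 2.87e-08).

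At the promoter of Ido1, the interferon-inducible enzyme that degrades tryptophan (chr8:24594806-24596114), A had 9.21, 11.9 and 16.0 CPM at TP2 and B had 2.57, 4.18 and 5.67. Alone, A had 2.85, 3.59 and 6.44 CPM and B had 2.49, 3.10 and 4.74. The libraries of A at TP2 stood above every other library, and those of B at TP2 overlapped both lines alone. Its log2 ratio was 1.47 ± 0.139 at TP2 (adjusted p = 3.66e-11) and 0.38 alone, with a change of 1.09 (adjusted p = 0.00257). The promoter of Arpp21, a cAMP-regulated phosphoprotein (chr9:112234223-112235990), had 17.6 to 38.6 CPM in A and 7.1 to 13.8 CPM in B at TP2, with ratios of 1.48 ± 0.114 at TP2 (adjusted p = 9.9e-14) and 0.42 alone. A peak 66680 bases from Zdhhc21, a palmitoyltransferase (chr4:82792178-82793809), had 6.28 to 13.6 CPM in A and 1.25 to 4.44 CPM in B, with ratios of 1.88 ± 0.171 (adjusted p = 1.06e-11) and 0.28.

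Inherited differences were called in both arms with no called change. The largest of those named lay 81654 bases from Efemp1, an extracellular matrix fibulin (chr11:28934428-28935288). Alone it had 1.91, 3.90 and 5.69 CPM in A and 8.36, 13 and 21.8 CPM in B, and at TP2 it had 3.0, 3.71 and 4.64 CPM in A and 8.60, 17.4 and 34.2 CPM in B. The lines did not overlap in either arm, and the log2 ratio was -1.99 ± 0.171 alone (adjusted p = 7.77e-11) and -2.34 ± 0.162 at TP2. An intronic peak close to Gna13, a G protein α subunit, had ratios of -1.54 alone and -1.59 at TP2, and an intron of Arhgap26, a GTPase-activating protein, had -1.13 and -1.40. The intron of Acss1, a mitochondrial acetyl-CoA synthetase (chr2:150645213-150648739), had 3.52 to 8.53 CPM in A and 6.67 to 16.1 CPM in B alone, and 1.97 to 8.11 and 12.9 to 21.7 CPM at TP2. Its ratio was -0.88 alone and -1.64 ± 0.152 at TP2, and its change of -0.77 missed the threshold (adjusted p = 0.0524).

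Towards A, the promoter of Nenf, which encodes the secreted factor neudesin (chr1:191317621-191318302), was inherited. It had 6.65, 8.85 and 13.9 CPM in A and 3.32, 5.74 and 7.88 CPM in B alone, where the lines overlapped, and 9.19, 11.2 and 14.8 against 0.807, 4.21 and 7.04 CPM at TP2, where they did not. Its ratio was 0.81 alone (adjusted p = 0.00474) and 1.71 ± 0.188 at TP2 (adjusted p = 1.88e-09). Inherited peaks also lay in an intron of Rap1gap2, a GTPase-activating protein of Rap1, with ratios of 0.79 alone and 1.17 at TP2, in an exon of Agk, the mitochondrial acylglycerol kinase, with 0.72 and 1.16, and in an intron of Lrguk, with 0.60 and 1.11.

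The largest ratios among the named peaks higher in A belonged to differences that were present alone and had grown. In an exon of Klc1, a kinesin light chain, 19021 bases from the start of the DNA repair gene Xrcc3 (chr12:111794070-111795571), A had 6.69, 9.63 and 12.3 CPM alone and B 1.77, 3.15 and 7.05. At TP2, A had 20.4, 29.4 and 49.8 CPM and B 1.21, 4.41 and 6.68. The lines overlapped alone and were apart at TP2, with higher values in A at TP2 than alone, and the ratio went from 1.49 ± 0.215 to 3.14 ± 0.188 (change adjusted p = 0.00059).

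In an intron of the long non-coding RNA gene 2610035D17Rik (chr11:113062690-113065288) both lines were lower at TP2 than alone. A had 42.1, 48.5 and 60.6 CPM alone and 26.2, 28.5 and 39.9 CPM at TP2, while B had 9.30, 27.0 and 33.2 CPM alone and 2.22, 4.40 and 7.43 CPM at TP2. The lines were apart in both arms and the ratio was 1.11 alone and 2.73 ± 0.181 at TP2. An intron of the sodium/calcium exchanger gene Slc8a1 (chr17:81668531-81670876) had 32.2, 46.3 and 69.5 CPM in A and 8.36, 12.5 and 24.5 CPM in B at TP2, with ratios of 0.89 alone and 1.88 ± 0.12 at TP2, again with no overlap in either arm. The promoter of Svip, which encodes a partner of the VCP ATPase (chr7:52004952-52006505), had 4.95, 10.5 and 16.2 CPM in A and 0.526, 1.25 and 4.69 CPM in B at TP2, where its ratio was 2.44 ± 0.223. Grown towards A were also Gm21814, Itga9 and an intron of Ccdc148 near Gm11099, with ratios of 2.28, 1.77 and 2.15 at TP2 and 0.77, 0.79 and 0.90 alone.

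Grown towards B were an intron of Sh3rf2, with ratios of -1.14 alone and -2.24 ± 0.164 at TP2, the promoter of the C-type lectin gene Clec4a3 (chr6:122951828-122953338), with -1.13 and -2.03 ± 0.175, an intron of Aff3, a nuclear factor of lymphoid cells, with -0.61 and -1.70, and a peak far from any gene start whose nearest was Cst10, with -0.81 and -1.70. At Clec4a3, B had 6.79 to 11.4 CPM alone and 7.09 to 13.8 at TP2, and A had 2.72 to 7.37 CPM alone and 1.16 to 4.80 at TP2.

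**Figure D2:**
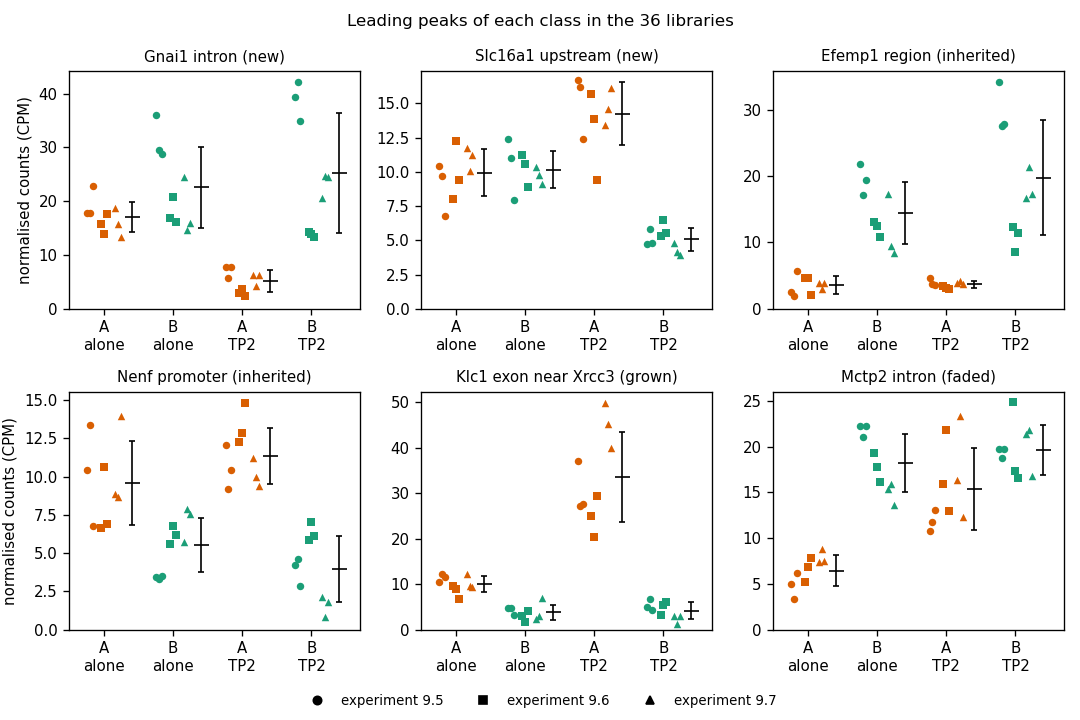
Normalised counts (CPM, y axis) at 6 leading peaks in each of the 36 libraries, for lines A (orange) and B (green) alone and at TP2 (x axis). Symbols mark the experiments, and the black bars give the mean and SD of 9 libraries. At the Gnai1 intron A at TP2 falls below the other groups, at the Efemp1 region B is higher in both arms, and at the Mctp2 intron A and B are apart alone and overlap at TP2.

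Faded differences ran the other way. In an intron of Mctp2, a calcium-binding membrane protein (chr7:72278349-72281627), A had 3.34, 6.83 and 8.83 CPM alone and B had 13.6, 17.8 and 22.3, with no overlap. At TP2, A had 10.8, 13.1 and 23.3 CPM and B 16.5, 19.7 and 24.9, which overlapped. The ratio was -1.47 ± 0.148 alone (adjusted p = 4.79e-09) and -0.33 at TP2 (adjusted p = 0.0647), with a change of 1.14 (adjusted p = 0.000276).

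At the promoter of Cdc42ep4, an effector of the GTPase Cdc42, A had 18.7, 23.7 and 31.2 CPM alone and 2.59, 6.66 and 8.81 at TP2, while B had 9.52, 13 and 17.3 CPM alone and 4.23, 6.84 and 9.88 at TP2. Both lines were lower at TP2, A by more, so that the ratio went from 0.95 to -0.09. Sirpa, the receptor of CD47, had ratios of 0.75 alone and -0.32 at TP2, Wwp2, a ubiquitin ligase, had 0.70 and -0.14, Tmem132a had 0.66 and -0.13, and Vav3, a guanine nucleotide exchange factor, had 0.63 and -0.13. The TP2 value of Vav3 was 1.01 within experiment 9.5, -0.57 in 9.6 and -0.43 in 9.7. Among peaks that had been higher in B, Snx27, a sorting nexin, had -0.95 alone and -0.25 at TP2, a second Mctp2 intronic peak near Gm36696 had -0.97 and -0.18, and a peak far from Slxl1 on the X chromosome had -0.87 and -0.01. At Rbp2, a retinol-binding protein, the ratio went from -0.89 alone to 0.55 at TP2.

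At the immunoglobulin heavy chain locus on chromosome 12, neighbouring peaks changed in opposite directions. B cell precursors assemble the heavy chain gene by joining a D to a J segment and then a V segment, with loss of the DNA between the joined segments, and read counts at this locus can reflect both accessibility and the DNA that is left. At Ighd2-4 (chr12:113470615-113473704) A had 12.4, 15.9 and 18.1 CPM alone and 0.801, 2.23 and 4.95 CPM at TP2, and B had 9.19, 11.8 and 17.6 alone and 7.88, 11.6 and 15 at TP2. A was far below B at TP2 without overlap, although the lines overlapped alone. The ratio was 0.28 alone and -2.34 ± 0.15 at TP2 (adjusted p = 1.92e-16), a change of -2.62 (adjusted p = 7.21e-14).

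At Ighd2-3, the next peak (chr12:113475270-113477359), A had 3.77, 6.59 and 7.31 CPM alone and 11.2, 15.8 and 20.9 at TP2, and B had 2.96, 4.52 and 8.90 alone and 1.71, 3.42 and 5.18 at TP2. Here every A library was above every B library at TP2, with a ratio of 0.23 alone and 2.2 ± 0.14 at TP2 (adjusted p = 1.77e-16) and a change of 1.96 (adjusted p = 1.02e-08). Another peak, near Ighd2-5 (chr12:113466116-113467849), was chosen after its values were seen, because the naming rule kept only the larger of neighbouring peaks. Its mean in A was 10.3 CPM alone and 1.47 ± 0.816 (SD, n = 9) at TP2, that in B was 7.52 alone and 7.13 ± 1.75 at TP2, and its ratio was 0.45 alone and -2.36 ± 0.149 at TP2. All 3 peaks kept these signs at TP2 in each experiment.

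The flanking peaks of the locus moved less. Near Ighd1-1 the TP2 ratio was -0.26, near Ighj4 it was -0.04 and near Ighm it was -0.09, none of them called. The peak at Ighd, the constant region gene of IgD (chr12:113416376-113420105), was called new at -0.59 ± 0.0909 (adjusted p = 4.15e-06), with a mean of 41.2 CPM in A and 62.1 in B at TP2 and of 70.6 and 69.8 alone. The D segments are near copies of each other: 35.6% of the 50-base words of the Ighd2-4 peak, 27.6% of those of Ighd2-5 and 13.7% of those of Ighd2-3 occurred again within 100 kb, so the assignment of reads among them is uncertain. Whether rearrangement, or a change in which cells made up line A, had a part in these values was not tested.

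**Figure D3:**
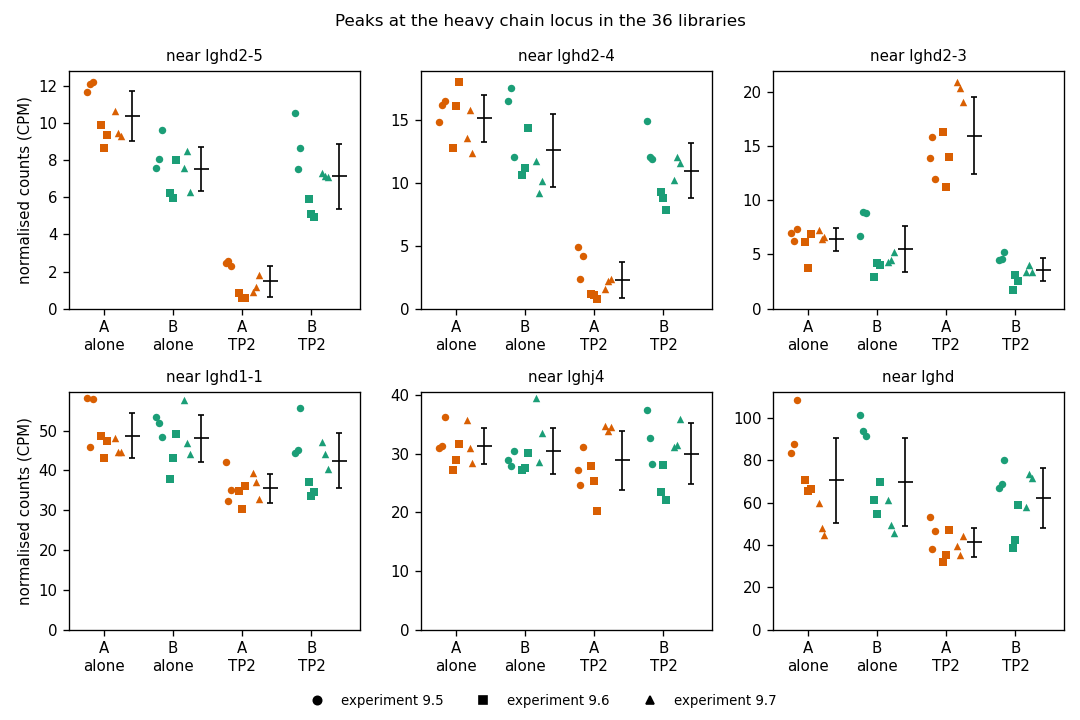
Normalised counts (CPM, y axis) at 6 peaks of the immunoglobulin heavy chain locus in each of the 36 libraries, for lines A (orange) and B (green) alone and at TP2 (x axis), with the mean and SD of 9 libraries in black. Near Ighd2-5 and Ighd2-4 the A libraries at TP2 lie below all others, near Ighd2-3 they lie above all others, and near Ighj4 the 4 groups overlap.

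The other antigen receptor loci are read against the 4.85% called among all tested peaks. Of 95 tested peaks at heavy chain V segments 2 were higher in B at TP2 (Ighv1-62-3 at -1.13 and Ighv1-82 at -0.78), and of 95 at the κ light chain locus 3 were higher in B (Igkv10-95 at -0.61, Igkv4-62 at -0.66 and Igkv12-46 at -0.63). Both shares are near or below that background. At the T cell receptor α and δ loci 4 of 9 tested peaks were higher in B, a larger share from a small number of neighbouring peaks, namely Trav15-1-dv6-1 at -1.64 ± 0.171, Trav9n-1 at -1.38 ± 0.178, Trav8d-2 at -0.95 and Trav11n at -0.82. Trav9n-1 had 1.34 to 6.09 CPM in A and 6.27 to 12.6 in B at TP2, and 5.75 to 13.4 and 4.18 to 11.1 CPM alone. None of 14 tested peaks of the T cell receptor β locus, 8 of the γ locus and 2 of the λ light chain locus was called. V segments belong to families of similar copies, so these single peaks carry the same uncertainty. These loci were chosen with earlier results known.

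Promoters of genes that respond to interferon are read against the share called among all promoter peaks. Within 3 kb of a transcription start, 495 of 14917 tested promoter peaks (3.32%) were called at TP2, 372 higher in A and 123 higher in B, or 295 and 169 when promoter peaks were fitted by themselves. The gene lists count, for each gene, the promoter peak nearest its start. Of 17 such peaks of interferon-γ-induced GTPases 1 was called, higher in B, and of 30 of antiviral interferon-stimulated genes 1 was called, higher in A. None was called of 21 of interferon signalling and feedback, 22 of MHC class I and 11 of MHC class II presentation. Their median log2 ratios at TP2 were 0.02, 0.09, 0.04, 0.00 and -0.04, against 0.01 over all tested peaks. At adjusted p without the fold threshold, 4 of the 11 MHC class II peaks were higher in A at TP2 and 0 higher in B. Of the 30 antiviral peaks 5 were higher in A and 2 higher in B at that threshold. Among all 44797 tested peaks 3747 were higher in A and 5171 higher in B at it. The change of the A/B ratio from alone to TP2 was called at 3 of the 30 antiviral peaks and at no peak of the other lists named here. Among all 14917 promoter peaks it was called at 214.

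Among single interferon genes, the promoter of Rtp4, an antiviral chaperone-like protein (chr16:23608173-23611471), had 6.72, 9.68 and 18.2 CPM in A and 4.16, 6.73 and 10.4 CPM in B at TP2, which overlapped. Alone it had 3.18 to 6.11 and 2.97 to 6.65 CPM. At TP2 the lines were apart in experiment 9.5 (8.18 to 15.1 CPM in A and 4.18 to 5.57 in B) and overlapped in 9.6 and 9.7. The ratio at Rtp4 was 0.63 ± 0.143 at TP2 (adjusted p = 0.00114) and -0.08 alone, and the change of 0.72 missed the threshold (adjusted p = 0.0798). The 59 bases just upstream of its transcription start hold 4 matches, in capitals, to the interferon-stimulated response element, GAAA repeated after 2 bases, of which the second and the third overlap.
Rtp4 promoter, chr16:23609845-23609903: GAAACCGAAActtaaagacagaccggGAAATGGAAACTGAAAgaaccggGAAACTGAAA
The same pattern lay in the central 300 bases of 4.50% of all tested peaks, 5.43% of those higher in A and 4.25% of those higher in B.

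Ifi27, an interferon-induced mitochondrial protein, had 19 to 29.5 CPM in A and 13.6 to 19.5 CPM in B at TP2, and 6.44 to 10.8 and 8.26 to 12.5 CPM alone. Its TP2 ratio of 0.51 was below the fold threshold (adjusted p = 7.78e-05), but its change of 0.78 was called (adjusted p = 0.000772). At a second promoter peak of Tyk2, a JAK kinase of the interferon receptors (chr9:21124806-21126516), which is not the one nearest its start, A had 11.5, 15.5 and 37.7 CPM and B 16.1, 30.3 and 55.8 at TP2, which overlapped across experiments. Its ratio was -0.87 ± 0.107 at TP2 (adjusted p = 3.3e-08) and 0.17 alone, with a change of -1.04 (adjusted p = 1.96e-05), and it was -0.91, -0.56 and -1.07 in the 3 experiments. The peak at the start of the GTPase gene Gbp11 had a ratio of -0.61 at TP2 and -0.43 alone.

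Promoters known as strong targets of interferon were not called different between A and B at TP2. The ratio was 0.36 for the GTPase gene Iigp1 (adjusted p = 0.0806), 0.34 for the antiviral Mx1 (adjusted p = 0.0796) and -0.11 for the protease inhibitor gene Serpina3f. It was -0.09 for Ly6a, the gene of the surface antigen Sca-1, -0.07 for Pla2g16, a phospholipase gene also named Plaat3, -0.03 for B2m, the light chain of MHC class I, and -0.02 for Cd274, which encodes PD-L1. For Iigp1 the ratio was 1.21 within experiment 9.5, 0.09 in 9.6 and -0.01 in 9.7. At Ly6a all libraries of A lay below those of B in experiment 9.7 (32.7 to 34.3 against 41.8 to 62.1 CPM). In experiment 9.5 A reached higher and overlapped B (55.5 to 81.4 against 49.9 to 58.1 CPM), and in 9.6 the lines overlapped. At Pla2g16 A also lay below B in experiment 9.7 (21.6 to 21.7 against 24.1 to 29.1 CPM), and the lines overlapped in 9.5 and 9.6.

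The other gene lists are to be read against the 3.32% called among all promoter peaks, at which lists of this size would hold about 0 or 1 call, so their counts are no result about the lists. No promoter peak was called among 31 of B cell identity and the pre-B cell receptor, 24 of STAT5 targets and BCR-ABL signalling, 24 of inhibitors of killing and death regulators, 21 of tumour suppressors and the cell cycle, 16 housekeeping promoters, 11 of ligands of activating NK receptors and 5 of the Ly6 family and genes the study followed. The B cell identity list had a median of -0.13 at TP2 and 0.01 alone, and 4 of its members, Cd79b, Irf4, Vpreb2 and Blnk, had an adjusted p below the threshold with ratios between -0.28 and -0.20. Without the fold threshold 8918 of all 44797 tested peaks passed that adjusted p, 5171 of them higher in B. The 4 of 31 lie near that share and are no result about the list. The imprinted list had a median of 0.17 and 2 called of 14, both at Gnas, a G protein α subunit gene with several promoters. Of these the peak nearest Nespas was inherited, with ratios of 1.26 alone and 0.96 at TP2, and it was -0.01 within experiment 9.6.

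Single calls came from the lists of immune ligands (Ido1, of 13), stem and progenitor genes (the repressor gene Gfi1 at 0.67, of 14), adhesion genes (Lgals3, which encodes a galectin, at 0.59, of 20) and the TNF and NF-κB pathway (the chemokine gene Ccl3 at -0.64, of 18). A second peak of the MHC class II gene H2-Ab1, 1405 bases from its start, had a ratio of 0.67 at TP2 and -0.03 alone. The Lgals3 ratio was -0.14 within experiment 9.6, and that of Ccl3 rested on low levels, from 1.16 to 3.23 CPM in A and from 1.92 to 5.01 in B at TP2.

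Marker lists of other cell types were examined beside these results. Of 9 tested promoter peaks of NK cell markers, from 21 genes listed, none was called at TP2 (median 0.10, and 0.17 alone), and their summed level was 81.0 to 98.1 CPM in A and 73.5 to 93.3 in B at TP2, against 87.0 to 97.6 and 74.9 to 91.2 alone. At adjusted p without the fold threshold 2 of these 9 were higher in A and 0 higher in B. The highest ratio of the 9 was 0.49. Of 4 of T cell markers (median -0.46, and 0.05 alone) 1 was called, Cd5 at -0.64 ± 0.101 with 0.02 alone, while Thy1 had -0.51 and Trac -0.40. Their summed level was 25.3 to 52.9 CPM in A and 34.0 to 54.5 in B at TP2, and 29.2 to 61.8 and 28.3 to 54.0 alone. Of 7 of erythroid and megakaryocyte markers Itga2b was called at 0.60, although its ratio was -0.06 within experiment 9.6, and none was called of 6 myeloid and 5 fibroblast and endothelial markers. The part of other cells in the differences was not tested further.

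**Figure D4:**
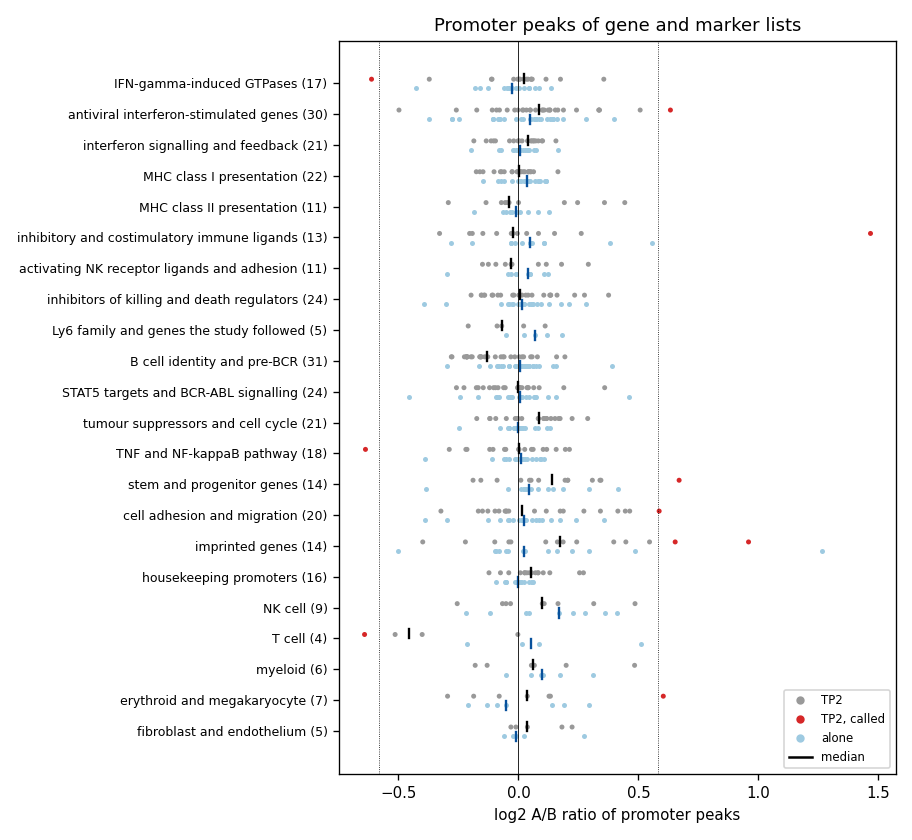
Log2 A/B ratio of the promoter peak nearest the start of each gene in 22 gene and marker lists (rows, number of peaks in brackets) at TP2 (grey, called peaks in red) and alone (blue), with the list medians as short bars and dotted lines at 0.58 and -0.58. Most peaks lie between the dotted lines, and Ido1 at 1.47 stands farthest out at TP2.

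Some called peaks lay in runs of neighbours. How many such runs the spacing of all tested peaks would give was not tested. With gaps of at most 100 kb, 23 clusters of 5 or more called peaks of the same sign were found. In the region from Nfib to Zdhhc21 (chr4:82643113-82823181) all 7 tested peaks were higher in A, with a median ratio of 1.77 at TP2 and 0.16 alone, and all 7 changes were called. At Arpp21 (chr9:112185895-112235990) all 6 tested peaks were higher in A, with medians of 1.22 and 0.22, and 4 changes were called. Towards B, 7 of 8 tested peaks from Adamts7 to Morf4l1 (chr9:90126043-90202223) had a median of -1.37 at TP2 and -0.08 alone, and all 5 at Gm11011 and Gm14249 (chr2:169515255-169562259) had medians of -1.42 and 0.02. None of the peaks in these 4 regions that were called at TP2 was called alone.

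From Abcg1 to Ubash3a (chr17:31070694-31286832) 10 of 18 tested peaks were higher in B, with medians of -0.99 at TP2 and -0.33 alone. From Ccl3 to Ccl5, chemokine genes on chromosome 11, 6 of 12 were higher in B, with -0.74 and -0.06. The Ido1 peak lay in a cluster of 5 with its paralogue Ido2 and with Adam18, with 0.86 and 0.38. Other blocks were present alone. In Rap1gap2 (chr11:74401744-74524499) all 7 tested peaks were higher in A at TP2 and 6 of them also alone, with medians of 1.15 and 0.82, and the block of Mab21l3 and Slc22a15 had 0.75 and 0.72. The fatty acid binding protein genes Fabp4 and Fabp12 and Pmp2 lay in a block higher in B, with -0.91 and -0.62.

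A last kind of cluster held repeated sequence. On the unplaced scaffold JH584304.1, 19 of 22 tested peaks were higher in A, with a median ratio of 0.69 at TP2 and -0.06 alone, and medians of 0.99, 0.17 and 1.10 in experiments 9.5, 9.6 and 9.7. The clusters at the zinc finger genes Zfp978 and Zfp988, at Gm10717, at Sfi1 and at Speer4e had the same profile, with medians between 0.14 and 0.21 in experiment 9.6 and between 0.84 and 1.35 in the other experiments. Unplaced scaffolds took 0.153% to 0.214% of the counts of A and 0.101% to 0.129% of those of B in experiment 9.5, 0.271% to 0.277% and 0.245% to 0.268% in experiment 9.6, and 0.155% to 0.168% and 0.0711% to 0.121% in experiment 9.7. Reads of such copies are hard to place. The methods name a blacklist of a human build for these mouse reads, so it is uncertain whether such regions were masked. The part of either in these calls was not tested. Without the peaks in which over 50% of bases are repeats, an alternative chosen after seeing the data, 2095 peaks were called at TP2.

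**Figure D5:**
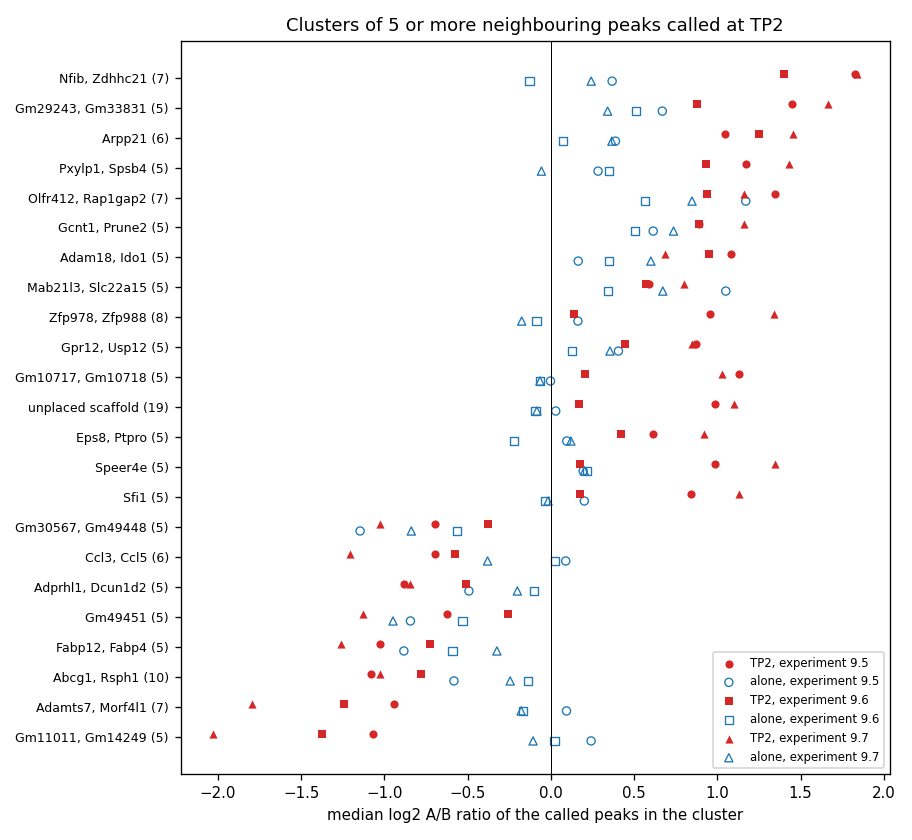
Median log2 A/B ratio (x axis) of the called peaks in each of the 23 clusters (rows, number of called peaks in brackets), at TP2 (filled) and alone (open), by experiment. The TP2 medians keep 1 sign across experiments in each cluster, while those of the repeat clusters, such as the unplaced scaffold, lie near 0 in experiment 9.6.

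Over whole chromosomes the lines were balanced. The median ratio of each autosome and of the X chromosome lay within 0.05 of 0 at TP2 except for chromosome 3 at 0.050, while the 16 tested peaks of the Y chromosome had a median of 0.39 at TP2 and -0.21 alone. Among 264 windows of 10 Mb with at least 20 tested peaks, the TP2 median ran from -0.15 to 0.68, and 7 windows lay beyond 0.2. The highest was the scaffold named above, followed by the windows at 10 to 20 Mb of chromosome 5 with a median of 0.35, at 100 to 110 Mb of chromosome 10 with 0.32 and at 110 to 120 Mb of chromosome 14 with 0.31. Alone, 5 windows were beyond 0.1, against 41 at TP2.

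In location and length mainly the peaks higher in B differed from all tested peaks, while both called sets had lower levels. Promoters made up 33.3% of tested peaks, 33.4% of those higher in A and 11.6% of those higher in B, whereas introns held 35.2%, 31.8% and 51.9%. New peaks were promoters in 26.4% of cases and inherited ones in 16.1%. Their accessibility was below average, with a median level of 5.95 CPM for peaks higher in A and 7.71 for those higher in B against 13 over all tested peaks. Peaks higher in B were also shorter, with a median of 1424 bases against 1853 for those higher in A and 1826 overall. Level and length bear on the power of the test, so these are descriptions of the called sets.

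Pattern content differed mainly for peaks higher in B. The GAS pattern shown at the Gnai1 intron lay in the central 300 bases of 15.8% of them (Wilson 95% interval 13.7% to 18.1%), of 10.0% of peaks higher in A (8.38% to 12%) and of 8.88% of all tested peaks. The RUNX pattern lay in 14.5%, 6.44% and 8.55%, and the E-box in 26.0%, 19% and 19.5%, with 32.7% among new peaks higher in B. Outside promoters, where most peaks higher in B lay, the shares of peaks higher in B and of all tested peaks were 16.7% and 9.99% for GAS, 14.5% and 10.3% for RUNX, and 25.2% and 20.6% for the E-box. Over whole peaks rather than their centres the ratios of B higher to all tested peaks shrank from 1.78 to 1.09 for GAS, from 1.70 to 1.11 for RUNX and from 1.33 to 0.997 for the E-box.

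Of the other patterns, ETS, CTCF and NF-κB were less frequent in peaks higher in B than in all tested peaks. The AP-1 pattern TGANTCA lay in 8.0% of peaks higher in A, 10.4% of those higher in B and 8.49% of all, but in 21.7% of the 83 inherited peaks higher in A. The ETS pattern CCGGAAG lay in 2.76%, 2.17% and 4.37%, the PU.1 pattern GAGGAAG in 15%, 16.1% and 15.3%, the NF-κB pattern in 18.7%, 13.9% and 17.7%, the EBF1 pattern, TCCC and GGGA 2 bases apart, in 1.84%, 1.70% and 1.95%, and the core of the CTCF motif in 0.920%, 0% and 1.12%. The ETS share of peaks higher in B had a Wilson 95% interval of 1.45% to 3.24%. Among promoter peaks it was 0.813% against 9.20% of all such tested peaks, and outside promoters 2.35% against 1.96%. The NF-κB share of peaks higher in B was 17.9% against 24.4% among promoter peaks and 13.4% against 14.3% outside promoters. Over whole peaks the ratios of B higher to all tested peaks were 0.379 for ETS, 0.180 for CTCF and 0.796 for NF-κB. For CTCF, 0 of 1059 peaks higher in B held a match, which allows a share of up to 0.361% (Wilson 95% interval). Peaks are neighbours in part, and the intervals cover counting error alone.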

How the data were processed

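ATAC-seq libraries of sorted leukaemia cells were analysed from the table of raw read counts per consensus peak and the per-library broad peaks deposited by the authors. The authors aligned reads to GRCm38 with STAR (version not given in the sources used here), marked duplicates with Picard 2.27.4, called broad peaks with MACS2 2.2.7.1, removed peaks in blacklisted regions (the list is named for a human build), merged them over libraries and counted reads per peak, unstranded. The deposited broad peaks carry a −log10 q-value per peak; only their intervals were used.

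Of 256400 consensus peaks, 44797 were tested: those with a broad peak in all 3 libraries of 1 or more of the 12 groups and passing edgeR's count filter. The counts were normalised by TMM and fitted with edgeR 4.0.16 (limma 3.58.1, R 4.3.3) over 36 libraries, with 6 blocks of experiment and arm and an A-minus-B term within each arm. The quasi-likelihood F-test was applied to the A/B difference at TP2, alone, and to its change, with Benjamini-Hochberg adjustment. Calls needed an adjusted p of at most 0.05 and an absolute log2 ratio of at least 0.58. Levels are CPM on TMM library sizes, and promoter peaks have their centre within 3 kb of a transcription start (GENCODE, GRCm38). On data simulated for the TP2 comparison over 44797 peaks, 98% of differences of log2 size 1 were recovered, with 2 false calls, and 88% of changes of that size, on which the classes rest. The differences were set only at peaks above a minimum mean level, and the simulated A/B difference did not vary between experiments. Recovery at weaker peaks and false calls from such variation were therefore not measured.

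Named peaks were the 10 largest in each direction at TP2 that had the same sign in all 3 experiments and a mean of at least 10 CPM in the higher line, the 5 largest each way among new, inherited, faded and promoter peaks, called promoter peaks of list genes, 13 fixed genes, and clusters of at least 5 called peaks with gaps up to 100 kb. Called peaks of the same sign within 100 kb were ranked once. The comparison, its members and the lists were chosen with earlier results of these data known. DESeq2 1.42.0, other scalings, filters and left-out libraries were run as alternatives. The other lines and the first co-culture time point were not used here. A few of the chosen items are not reported here.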

Additional observations from a re-analysis of the deposited data

Results flagged for a closer look

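Results were picked out here where the A/B difference itself differed between B-ALL alone and TP2, tested as the change term of edgeR's quasi-likelihood fit with Benjamini-Hochberg adjustment. This held for 782 peaks. All changes below are differences of the log2 A/B ratio, TP2 minus alone, and positive values mean a move towards A.

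At the heavy chain locus the change was 1.96 near Ighd2-3, -2.62 near Ighd2-4 and -2.81 near Ighd2-5. Among grown differences it was 1.65 at the Klc1 exon near Xrcc3, 1.63 at 2610035D17Rik, 1.58 at Svip, 1.51 at Gm21814, 1.25 near Gm11099, 0.99 at Slc8a1 and 0.98 at Itga9. Towards B it was -1.10 at Sh3rf2, -0.91 at Clec4a3, -0.89 near Cst10 and -1.09 near Gm16150 in the Aff3 intron.

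Among new differences the change was 1.60 near Zdhhc21, 1.53 near Slc16a1, 1.06 at Arpp21 and 1.09 at Ido1. It was -1.85 at Gnai1, -1.07 at the Ets1 intron near Gm27240, -1.46 near Sln, -1.06 near Gm43349, -1.18 near AC154652.1 in Ubash3a, -0.66 at Cd5 and -1.04 at Tyk2. Ifi27 had a change of 0.78 without being called at TP2.

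Among faded differences the change was -1.04 at Cdc42ep4, -1.07 at Sirpa, -0.83 at Wwp2, -0.79 at Tmem132a and -0.76 at Vav3. It was 1.14 at Mctp2, 0.79 near Gm36696, 0.70 at Snx27, 1.44 at Rbp2 and 0.86 near Slxl1. The arms also differ in days in culture, which cannot be told apart from exposure to NK cells.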

How the results depend on the processing

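Counts below are given for TP2, alone, change, new and inherited peaks. With DESeq2 the first 3 were 2180, 506 and 798, and other scalings and count filters stayed close to the reported 2174, 505 and 782. Requiring a broad peak in all 36 libraries gave 248, 35, 117, 65 and 12, with 5.24% of TP2 calls shared with B-ALL alone. Testing without the peak-call rule gave 5281 at TP2 and a share of 4.87%. Promoter peaks alone gave 464, 75, 179, 110 and 29 and a share of 6.68%. Adjusted p without a fold threshold gave 8918, 1158, 866 new and 595 inherited, and a log2 threshold of 1 gave 390, 92, 220, 137 and 30. Within experiment 9.5 the counts were 5016, 1007, 1610, 1088 and 389, within 9.6 they were 226, 2, 8, 8 and 1 with a share of 0.442%, and within 9.7 there were 6 alone, 46 changed, 46 new and 3 inherited with a share of 0.187%. Without experiment 9.5 there were 88 alone, 233 changed, 195 new and 51 inherited with a share of 3.27%, without 9.6 there were 3907 at TP2, and without 9.7 there were 279 new. Leaving out each library gave 1948 to 2517 at TP2, 412 to 548 alone, 642 to 1381 changed, 404 to 741 new, 176 to 240 inherited and shares of 9.15% to 12.2%; the highest counts of changed and new peaks came without replicate 1 of B alone in experiment 9.7. Over whole peaks the pattern ratios were 1.09 for GAS, 1.0 for AP-1, 1.11 for RUNX, 0.997 for the E-box, 0.379 for ETS, 0.180 for CTCF and 0.796 for NF-κB. The TP2 ratio turned at Vav3 (1.01 within 9.5) and, within 9.6, at Gnas (-0.00576), Itga2b (-0.0596) and Lgals3 (-0.142). The causes of these shifts were not tested.

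Same-numbered replicates share only a number in the labels, and of 18 pairs 6 correlated above 0.1 (-0.19 to 0.69). In experiment 9.7 all 3 pairs alone did (0.69, 0.106 and 0.46) and 2 of 3 at TP2 (0.166 and 0.346). Some pairs with different numbers also did, such as replicate 3 of A with 2 of B alone in experiment 9.7 (0.327). Another was replicate 2 of A with 1 of B at TP2 in experiment 9.6 (0.438). These values therefore cannot tell whether libraries were paired by number. With a replicate block the counts were 2170, 530, 1088 and 644 new. With the 3 libraries of each group summed they were 2200, 368, 539, 370 new and 170 inherited. Lower depth limits the precision of weak peaks.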
